A study of Mus musculus with 5 samples.

Results

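Bile duct fluid and ion secretion was followed through 10 genes: Cftr, Ano1, Slc4a2, Car2, Slc12a2, Aqp1, Aqp5, Sctr, Sstr2 and Pkhd1. They were chosen by symbol for their known roles in duct secretion, with earlier results of these data already known. All 10 were found among the 55397 genes of the deposited table. All 10 passed the filter on low values (a mean of 10 normalised counts or more) and so were among the 17105 genes tested. Sstr2 was also one of the markers that the study chose to display for these samples, so its direction is not independent evidence.

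The libraries were bulk RNA-seq profiles of liver tumours in C57BL/6N mice, made by hydrodynamic tail vein injection of plasmids into females aged 8 weeks. In both groups, Sleeping Beauty transposons carried Akt and the NOTCH1 intracellular domain (NICD), which give tumours with features of cholangiocarcinoma (CCA), and the NICD plasmid also carried the doxycycline-responsive activator rtTA. The Prox1 OE group (3 libraries) received a doxycycline-inducible plasmid with FLAG-tagged mouse Prox1 and GFP, and the Control group (2 libraries) received the same backbone with GFP alone. Both were fed doxycycline (6.25%) from day 21, for overexpression from week 3 to 4. Both the drivers and the inducible gene can act only in cells that took up the plasmids, while a dissected tumour also holds other cells. Tumours were collected after a week of induction or at a humane endpoint, and the labels do not say which applied to which library. They also do not say that each library came from a separate animal, so p-values measure the spread between these libraries.

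Cholangiocytes, the epithelial cells of bile ducts, dilute and alkalinise bile. Secretin binds its receptor on these cells and raises cAMP, which opens the chloride channel CFTR; chloride leaving by CFTR or by calcium-activated channels is exchanged for bicarbonate by AE2, and water follows through aquaporins. Somatostatin opposes secretin. In the liver, AQP1 is also a water channel of endothelium and red cells, so a bulk level of Aqp1 does not belong to duct cells alone.

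The 10 genes mostly had lower RNA levels with Prox1. With limma, 8 were lower (16.2% of all genes tested were called lower) and 1, Aqp1, was higher (17.1% of all genes were called higher), while Slc4a2 did not pass. Their median log2 fold change (Prox1 OE minus Control) was -1.04, beside -0.02 over all genes tested, but with Akt1 and Notch1 as the scaling reference it was 0.08, in a fit where all genes had a median of 1.09. In that fit 1 of the 10 was called lower and 3 higher, beside 1.39% and 73.9% of all genes tested. Relative to that median, Aqp1 was at 0.76 and the other 9 genes lay between -1.89 and -0.37. Members called lower numbered 2 without Control replicate 2, 3 without Control replicate 1 and 5 without Prox1 OE replicate 2, in fits that called 4.88%, 2.79% and 10.2% of all genes lower, and Aqp1 was not called without Control replicate 1 or Prox1 OE replicate 2. In none of the 10 genes did the groups overlap, 9 being lower and 1 higher in every Prox1 OE library, and 63.3% of all genes tested had groups that did not overlap. In bulk tumour RNA, fewer cells of a type and less RNA per cell cannot be told apart.

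Library totals were 48740863 to 56629477 reads, and a member had between 71 and 14295 reads in a library. Prox1 itself was at 4153 and 4664 normalised counts in Control, against 48090, 11113 and 8231 in Prox1 OE. The groups did not overlap, but the difference of 1.90 (log2) missed the threshold (SE 0.66, limma adjusted p = 0.061). The genes Akt1 and Notch1 were also lower, with log2 fold changes of -1.05 (limma adjusted p = 0.0057) and -1.19 (limma adjusted p = 0.0046). Plasmid and endogenous transcripts were not separated in these counts, so the level of the introduced drivers was not measured. As a scaling reference, Akt1 and Notch1 carry the same limit. Duct markers were lower in 10 of 12 tested genes (median -1.21), or in 4 with 1 higher (median -0.09) when Akt1 and Notch1 were the reference, and their summed normalised count was 769065 to 836347 in Control and 527727 to 713919 in Prox1 OE. Hepatocyte markers were higher in 11 of 12 (median 1.73, or 2.85 with that reference and 1.30 with total counts), from 760548 to 1220536 in Control and from 2573163 to 4019587 in Prox1 OE. Krt19 and Sox9 of the duct list and Alb and Ttr of the hepatocyte list were markers the study displayed for these samples. Their directions are therefore not independent evidence. Proliferation genes were lower in 8 of 8 (median -0.89), while 0 of 8 were called with Akt1 and Notch1 as the reference (median 0.23). Mural cell markers were lower in 5 of 8 (median -0.78). These 5 included Kit (-1.41, limma adjusted p = 0.0030), a receptor gene not particular to mural cells. With that reference 2 of the mural list were higher and 1 lower (median 0.34), and with total counts 8 of 8 were lower (median -1.21). Macrophage markers were higher in 4 of 8 (median 0.85), or 8 of 8 with that reference (median 1.97) and 3 of 8 with total counts (median 0.42). The fit that left out Control replicate 1 called 5 duct, 2 hepatocyte, 2 mural, 2 macrophage and 0 proliferation markers. Calls also dropped without Prox1 OE replicate 2 (7 hepatocyte and 5 proliferation markers), without Prox1 OE replicate 3 (5 proliferation markers) and without Control replicate 2 (3 mural markers). Fewer of all genes tested also passed in each of these fits. The part of these marker shifts in the levels of the secretion genes was not tested.

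To show what the genes share beside their levels, the 250 bases before the RefSeq start (GRCm38.p6) were searched on both strands for TGGGAA (an RBPJ core), TGACGTCA (the cAMP response element) and GGGCGG (an SP1 box). Matches of one motif may overlap each other. RefSeq entries were found for 7 of the 10 genes, 8 entries in all, and 2 are shown because they held the TGACGTCA match and the most GGGCGG matches. Capitals mark GGGCGG in Cftr (chr6:18170437-18170686, plus strand), and TGACGTCA and GGGCGG or its reverse complement in Sstr2 (chr11:113619077-113619326, plus strand).
Cftr: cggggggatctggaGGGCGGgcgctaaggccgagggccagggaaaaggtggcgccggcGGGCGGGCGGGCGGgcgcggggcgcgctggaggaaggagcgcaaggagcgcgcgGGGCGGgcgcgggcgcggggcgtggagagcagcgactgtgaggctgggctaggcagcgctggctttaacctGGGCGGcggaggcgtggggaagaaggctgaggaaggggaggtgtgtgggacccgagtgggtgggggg
Sstr2: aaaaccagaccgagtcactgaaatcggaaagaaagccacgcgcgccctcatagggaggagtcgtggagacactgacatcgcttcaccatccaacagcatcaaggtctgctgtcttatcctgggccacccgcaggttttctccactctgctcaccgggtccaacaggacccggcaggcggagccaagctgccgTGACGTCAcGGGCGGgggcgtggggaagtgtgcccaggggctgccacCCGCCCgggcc

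The Cftr sequence held 6 GGGCGG matches and had a GC content of 76.4%, against 63.6% in Sstr2. TGACGTCA stood 58 bases before the start of Sstr2 and was found in no other of these entries. Over 32851 mouse promoters of this length, TGGGAA occurred in 21.6%, TGACGTCA in 1.55% and GGGCGG in 32.7%, compared with 2, 1 and 5 of the 8 entries. These are matches of letters and not measured binding.

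Cftr (chr6:18170687-18322768, plus strand) encodes the cAMP-regulated chloride channel at the duct cell's luminal membrane, and with all 5 libraries it had the largest fall of the 10 genes. Without Control replicate 1 or Prox1 OE replicate 1, Aqp5 fell slightly more (-1.97 against -1.95, and -1.95 against -1.90). Its normalised counts were 6111 and 6398 in Control and 1611, 1910 and 1477 in Prox1 OE. Every Prox1 OE library was far below both Control libraries, at 23.6% to 30.5% of the Control mean. Means were 6254 ± 203 (SD, n = 2) and 1666 ± 222 (SD, n = 3), a log2 fold change of -1.92 (SE 0.14, 95% confidence interval -2.23 to -1.60, limma adjusted p = 0.0014). The call held without any 1 library (-2.02 to -1.83) and with Akt1 and Notch1 as the reference (-0.79, limma adjusted p = 0.010).

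Ano1 (chr7:144588549-144751974, minus strand) encodes a calcium-activated chloride channel that gives duct cells a second route for chloride. It had normalised counts of 6189 and 5301 in Control and 3680, 2916 and 1746 in Prox1 OE. The groups did not overlap, although Prox1 OE replicates ranged from 30.4% to 64.1% of the Control mean. Ano1 differed by -1.11 on the log2 scale (SE 0.28, limma adjusted p = 0.023). Leaving out Control replicate 1, Control replicate 2 or Prox1 OE replicate 2 ended the call (limma adjusted p = 0.15, 0.081 and 0.063), and with Akt1 and Notch1 as the reference the value was 0.01.

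The 2 channels did not fall in proportion. Within a library, Cftr per kb of exon was 0.794 and 0.970 times Ano1 in Control and 0.352, 0.527 and 0.680 times in Prox1 OE. All Prox1 OE ratios were below both Control ratios, and this ratio does not depend on how libraries are scaled. It was chosen after the values were seen and is a description without a test.

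Slc4a2 (chr5:24423837-24440950, plus strand) encodes AE2, the chloride/bicarbonate exchanger. Its normalised counts were 4807 and 5106 in Control and 4241, 4006 and 3145 in Prox1 OE. The Prox1 OE libraries were all lower, but by little in replicates 1 and 2, at 85.6% and 80.8% of the Control mean. A log2 difference of -0.40 was not called (SE 0.15, 95% confidence interval -0.75 to -0.04, limma adjusted p = 0.079). It passed with total counts as library size (-0.83, limma adjusted p = 0.0080) and without Prox1 OE replicate 1 (-0.48, limma adjusted p = 0.036), and was higher with Akt1 and Notch1 as the reference (0.73, limma adjusted p = 0.013). Slc4a2 overlaps Fastk on the opposite strand, whose mean was 2457 in Control and 3223 in Prox1 OE. The strand setting of the authors' counting was not given in the sources used here, so reads shared with Fastk cannot be set aside. Cftr per kb was 1.36 and 1.34 times Slc4a2 in Control and 0.407 to 0.511 times in Prox1 OE.

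Car2 (chr3:14886273-14900770, plus strand) encodes the cytosolic carbonic anhydrase that makes bicarbonate from carbon dioxide and water. Normalised counts were 5378 and 4984 in Control and 3877, 3540 and 3301 in Prox1 OE. The 3 Prox1 OE values were close together, at 63.7% to 74.8% of the Control mean, and below both Control values. This was a log2 difference of -0.54 (SE 0.12, limma adjusted p = 0.013). Without Control replicate 1 or 2 it did not pass (limma adjusted p = 0.14 and 0.076), and with Akt1 and Notch1 as the reference it was 0.58 (limma adjusted p = 0.039).

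Slc12a2 (chr18:57878678-57946821, plus strand) encodes NKCC1, the cotransporter that loads chloride into secretory cells from the blood side. It had normalised counts of 1283 and 1785 in Control and 901, 643 and 686 in Prox1 OE. All Prox1 OE values lay below the lower Control value. Slc12a2 differed by -1.04 on the log2 scale (SE 0.20, limma adjusted p = 0.0089). It did not pass without Control replicate 2 (-0.80, limma adjusted p = 0.083) and was 0.08 with Akt1 and Notch1 as the reference.

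**Figure D1:**
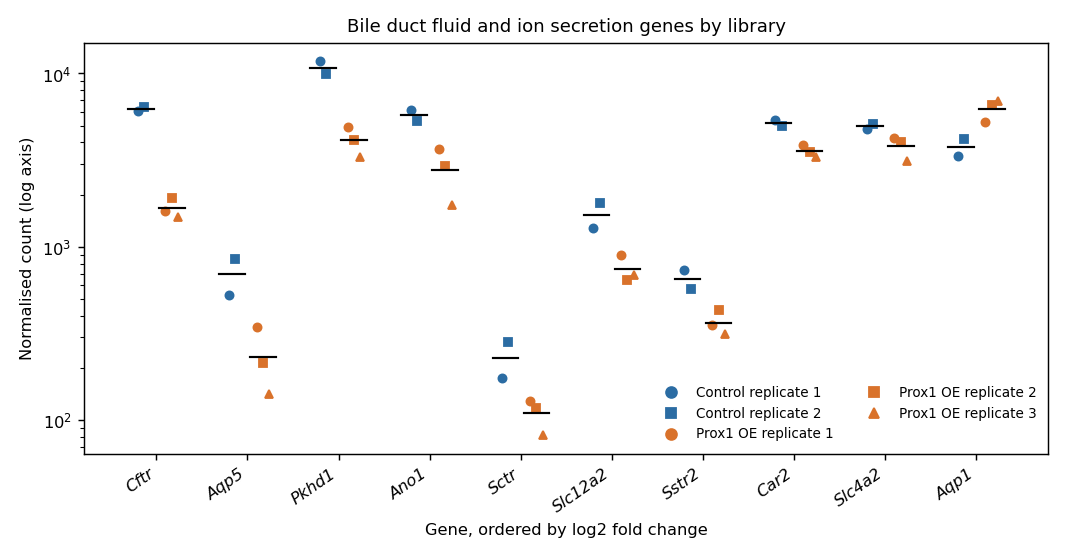
Normalised count (log axis) of each of the 10 secretion genes in the 2 Control (blue) and 3 Prox1 OE (orange) libraries. Points are libraries, shaped by replicate number, and black lines are group means. The groups do not overlap for any gene, Aqp1 being the 1 gene that is higher in Prox1 OE.

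The 2 aquaporins of the set went opposite ways. Aqp5 (chr15:99590782-99594829, plus strand), a water channel of the luminal membrane in secretory glands, had normalised counts of 530 and 856 in Control and 342.5, 212 and 142 in Prox1 OE. The groups did not overlap, but both were spread widely. Aqp5 differed by -1.62 on the log2 scale (SE 0.37, limma adjusted p = 0.016). It did not pass without Control replicate 1, Control replicate 2 or Prox1 OE replicate 2 (limma adjusted p = 0.055, 0.12 and 0.060), nor with Akt1 and Notch1 as the reference (-0.50, limma adjusted p = 0.14).

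Aqp1 (chr6:55336432-55348555, plus strand) had normalised counts of 3345 and 4175 in Control and 5247, 6545 and 6978 in Prox1 OE. Every Prox1 OE library was above both Control libraries, at 140% to 186% of the Control mean. Aqp1 differed by 0.73 on the log2 scale (SE 0.16, 95% confidence interval 0.35 to 1.11, limma adjusted p = 0.014). It did not pass without Control replicate 1 (0.57, limma adjusted p = 0.15), without Prox1 OE replicate 2 (0.70, limma adjusted p = 0.053) or with total counts as library size (0.30, limma adjusted p = 0.12).

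The other cells known to make Aqp1 were followed by their markers. Of 12 endothelial markers, 3 were higher (Clec4g, Stab2 and Tek) and 1 lower (Vwf), with a median of 0.09 (-0.02 without Control replicate 1), and none was at 0 in all libraries. That balance depended on the scaling, at 9 higher (median 1.22) with Akt1 and Notch1 as the reference and 2 higher and 6 lower (median -0.34) with total counts as library size. Their summed normalised count was 16501 to 20155 in Control and 18730 to 25523 in Prox1 OE. Clec4g, a lectin of liver sinusoids, rose by 2.61 (log2, limma adjusted p = 0.0035), from 283 and 565 to 1629, 2551 and 3537, whereas the pan-endothelial gene Pecam1 was at -0.27 (log2, limma adjusted p = 0.15). Pecam1 was called lower with total counts (-0.70, limma adjusted p = 0.0038) and higher with Akt1 and Notch1 as the reference (0.85, limma adjusted p = 0.010), and Tek was not called with total counts (0.13, limma adjusted p = 0.58). Without Control replicate 1 there was 1 endothelial call, and without Control replicate 2 there were 2. Of 6 tested erythroid markers 1 was higher, Alas2, and the median was 0.91, with summed normalised counts of 4948 and 7514 in Control and 12293, 8412 and 17954 in Prox1 OE. The erythroid median was 2.03 with Akt1 and Notch1 as the reference (5 of 6 higher), 0.48 with total counts and 0.50 without Control replicate 1. Erythroid calls numbered 0 without Control replicate 2 and 2 without Prox1 OE replicate 2. Within libraries, Aqp1 per kb was 4.04 and 4.35 times Pecam1 in Control and 7.40 to 9.39 times in Prox1 OE, but it fell from 11.1 and 6.92 to between 1.85 and 3.02 times Clec4g. Relative to the globin gene Hba-a1 it was 1.11 and 0.775 in Control and 0.783, 1.18 and 0.596 in Prox1 OE, and these ratios overlapped. The part of these cells in the level of Aqp1 was not tested.

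**Figure D2:**
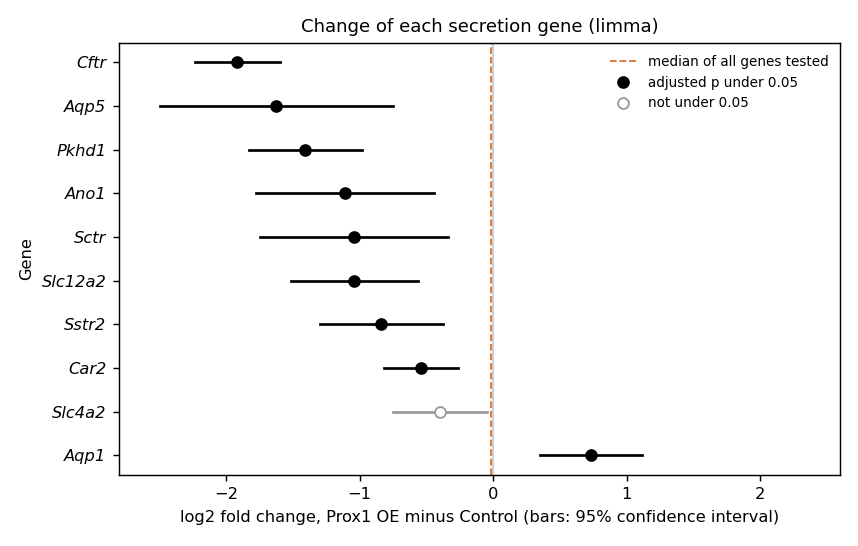
Log2 fold change (Prox1 OE minus Control) of the 10 genes with 95% confidence intervals from limma. Filled points passed an adjusted p of 0.05, and the dashed line is the median of all genes tested. Cftr lies farthest to the left at -1.92, and Slc4a2 is the gene that did not pass; with Akt1 and Notch1 as the scaling reference, 6 of the 9 lower genes had values above 0.

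Sctr and Sstr2 encode the receptors with opposite effects on duct secretion, those of secretin and somatostatin, and both were lower. Sctr (chr1:120006894-120063536, plus strand) had normalised counts of 176 and 282 in Control and 130, 117 and 82.2 in Prox1 OE. Although no Prox1 OE library reached Control replicate 1, the Control libraries themselves differed widely. Sctr differed by -1.04 on the log2 scale (SE 0.30, limma adjusted p = 0.034). Omitting each library in turn left the call standing in 1 of 5 fits, and it missed without Control replicate 1, Control replicate 2, Prox1 OE replicate 2 and Prox1 OE replicate 3 (limma adjusted p = 0.075, 0.26, 0.078 and 0.076). With Akt1 and Notch1 as the reference it was 0.07.

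Sstr2 (chr11:113619342-113626028, plus strand) had normalised counts of 737 and 570 in Control and 354, 431 and 312 in Prox1 OE. All Prox1 OE values were below the lower Control value. Sstr2 differed by -0.84 on the log2 scale (SE 0.20, limma adjusted p = 0.017), 0.28 with Akt1 and Notch1 as the reference, and did not pass without Control replicate 1 or 2 (limma adjusted p = 0.19 and 0.054). Sstr2 overlaps Slc39a11 on the opposite strand, which had a mean of 2384 in Control and 3022 in Prox1 OE. The ratio of Sctr to Sstr2 per kb was 0.254 and 0.527 in Control and 0.391, 0.289 and 0.280 in Prox1 OE. These ratios overlapped, so no shift between the receptors was seen beyond the spread of the libraries.

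Pkhd1 (chr1:20057779-20618064, minus strand) encodes fibrocystin, a protein of the primary cilium whose loss causes cystic kidneys and malformed bile ducts. It had normalised counts of 11744 and 9874 in Control and 4931, 4109 and 3317 in Prox1 OE. Every Prox1 OE library was lower than both Control libraries, at 30.7% to 45.6% of the Control mean. In the fit this was -1.40 on the log2 scale (SE 0.18, limma adjusted p = 0.0028). It passed without any 1 library (-1.54 to -1.26), but not with Akt1 and Notch1 as the reference (-0.28, limma adjusted p = 0.29).

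The Prox1 OE libraries did not contribute alike. Replicate 3 had the lowest Prox1 OE value in 8 of the 10 genes, and replicate 1 the highest in 7. The same order was not counted over all genes, so it cannot be called particular to these 10. Replicate 1 also had the highest Prox1 count and replicate 3 the lowest. A relation to Prox1 level was not tested with 3 libraries.

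Per kb of exon, Car2 had the highest level of the 10 genes in Control (2139 normalised counts per kb), followed by Aqp1 (1431), Ano1 (920), Cftr (805), Pkhd1 (755), Slc4a2 (596), Sstr2 (305), Aqp5 (267), Slc12a2 (140.5) and Sctr (114). Neighbours whose Control libraries overlapped were Cftr and Pkhd1, Sstr2 and Aqp5, and Slc12a2 and Sctr. In Prox1 OE, Aqp1 was first (2382 normalised counts per kb) and Car2 second (1475), and their libraries did not overlap. Slc4a2 moved from the sixth place to the third (456 per kb), and Cftr from the fourth to the sixth (215 per kb). Neighbours overlapped from Slc4a2 through Ano1 (445), Pkhd1 (288), Cftr and Sstr2 (171), and again from Aqp5 (89.4) through Slc12a2 (68.1) to Sctr (54.5).

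The rest of the secretory pathway was described by 7 lists of 140 genes, of which 116 were tested, with 22 higher and 33 lower, beside 17.1% and 16.2% of all genes. That balance depended on the scaling, at 77 higher and 6 lower with Akt1 and Notch1 as the reference and 13 higher and 60 lower with total counts as library size. All genes shifted likewise, with 73.9% higher and 1.39% lower under the first and 8.62% higher and 39.9% lower under the second. Fewer of these genes passed when either Control replicate was left out. Fewer of all genes tested also passed in those fits, which bears on the counts of each list below. Among 15 tested anion carriers other than the members, 3 were higher and 4 lower, with a median of -0.15. They were 10 higher and 1 lower with Akt1 and Notch1 as the reference (median 0.97), and 6 lower with total counts (median -0.58). The calcium-activated channel family member Ano9 fell by 2.20 (log2, limma adjusted p = 0.0048), from 263 and 270 to 55.2, 88.5 and 38.2. Ano6, a lipid scramblase and channel, fell by 1.12 and the vesicular exchanger Clcn3 by 0.51, and neither was lower with Akt1 and Notch1 as the reference. The higher genes were the anion exchanger Slc26a6 (0.85), Ano10 (0.50) and the chloride channel Clcn2 (0.42), and with total counts as library size none of the 3 passed (0.42, 0.07 and -0.01). No call in this list was left without Control replicate 1, and 2 were left without Control replicate 2, 4 without Prox1 OE replicate 3 and 2 without Prox1 OE replicate 2.

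Other aquaporins were higher, in 4 of 5 tested genes, with a median of 1.36 that stayed above 0 in every scaling tried (0.93 to 2.46). Aqp8, a hepatocyte aquaporin, rose from 4293 and 5250 to 23477, 18103 and 32358, with no overlap (log2 2.34, limma adjusted p = 0.0023). Aqp11 rose by 1.64, Aqp7, a glycerol channel, by 1.36, and Aqp9, the hepatocyte glycerol channel (named after its value was seen), by 1.31. Aqp7 was not called with total counts as library size (0.93, limma adjusted p = 0.064). Aqp4 was not called (-0.36), but was lower with total counts (-0.79, limma adjusted p = 0.020) and higher with Akt1 and Notch1 as the reference (0.76, limma adjusted p = 0.042), which made the list 3 higher and 1 lower or 5 of 5 higher. When Control replicate 1 was omitted, 2 genes of the list passed. The ratio of Aqp8 to Aqp1 per kb was 2.13 and 2.09 in Control and 7.43, 4.60 and 7.71 in Prox1 OE.

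Carbonic anhydrases split, with 6 higher and 4 lower among 13 tested beside Car2 (median 0.58). The split was 8 and 3 with Akt1 and Notch1 as the reference (median 1.67), and 4 and 4 with total counts (median 0.16). Car12, a membrane-anchored form, fell by 3.20 (log2, limma adjusted p = 0.0066), from 512 and 487 to 133, 35.4 and 32.4 (-3.84 when Prox1 OE replicate 1 was omitted). Car9, induced in hypoxic tumours, fell by 3.31 (limma adjusted p = 0.0034), from 277 and 849 to 64.4, 43.7 and 39.3. Omitting Control replicate 1 made it -4.12, and omitting Control replicate 2 made it -2.50. Car4 had 17.3 and 70.4 in Control and at most 3 reads in every Prox1 OE library, at least 13.0-fold lower against a floor of 3 reads per library. From Control replicate 1 alone that bound was 5.14-fold, and from Control replicate 2 alone 20.9-fold. Higher forms included mitochondrial Car5a (2.64), membrane Car14 (2.05) and Car3 (1.93), a cytosolic form of liver and muscle, which rose from 20823 and 21597 to 75816, 65788 and 105282.5. Car4, Car9, Car5a, Car14 and Car3 passed whichever library was omitted, and Car12 missed when Control replicate 1 was. That fit called 3 of the list higher and 3 lower. The ratio of Car2 to Car12 per kb went from 33.0 and 32.1 to 91.5, 314 and 319.5, whereas that to Car3 fell from 0.306 and 0.273 to between 0.0371 and 0.0636.

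**Figure D3:**
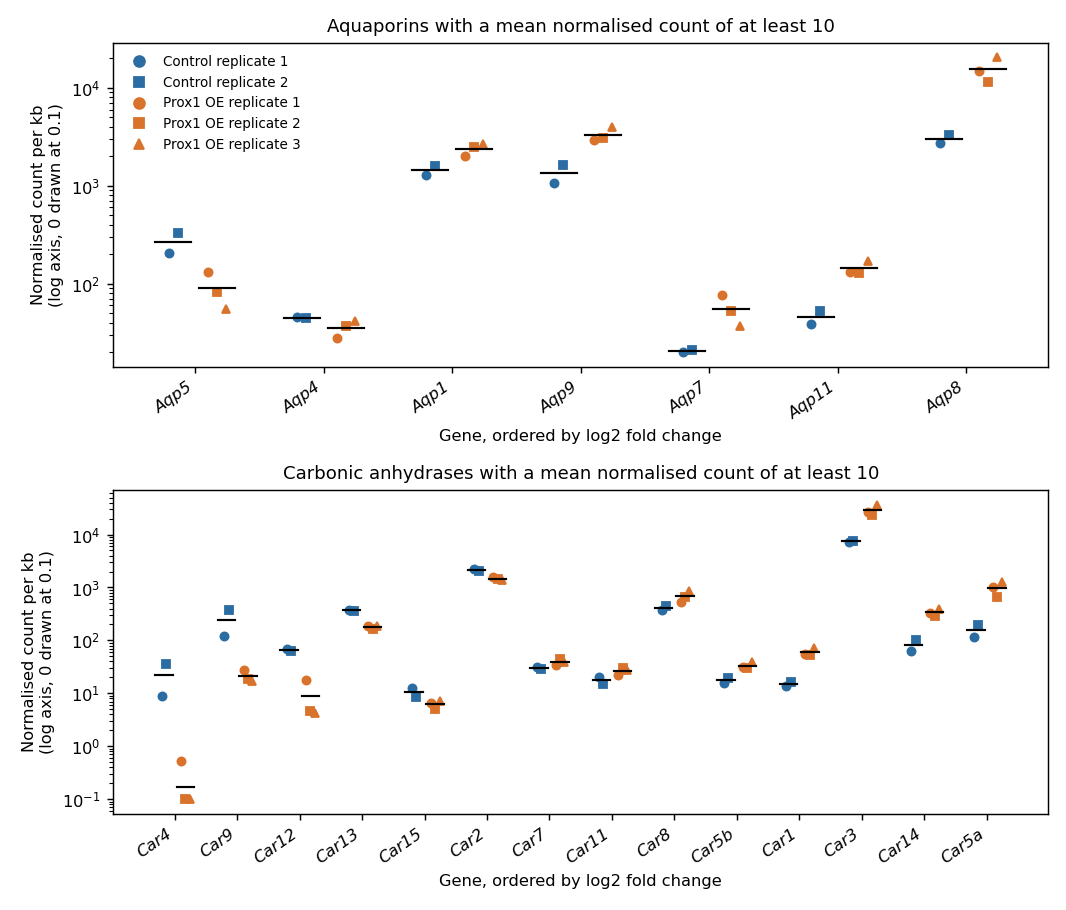
Normalised count per kb of exon (log axis, values of 0 drawn at 0.1) of the tested aquaporins (top) and carbonic anhydrases (bottom) in each library, ordered by log2 fold change. Blue is Control, orange Prox1 OE, and black lines are group means. Aqp8 (log2 fold change 2.34) and Car5a (2.64) lie at the right, while Aqp5 (-1.62) and Car4 (at or under 3 reads in Prox1 OE) lie at the left.

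Of 27 tested genes for potassium, sodium and proton transport, 2 were higher and 8 lower (median -0.35), against 15 higher with Akt1 and Notch1 as the reference (median 0.76) and 2 higher and 19 lower with total counts (median -0.78). Kcnq1 and Kcne3 encode the subunits of a cAMP-activated potassium channel that supports chloride secretion in epithelia, and they fell together. Kcnq1 went from 9528 and 10458 to 3995, 4141 and 2499 (log2 -1.53, limma adjusted p = 0.0035), and Kcne3 from 4590 and 5706 to 1812, 2152 and 1856 (log2 -1.40, limma adjusted p = 0.0023). Neither pair of groups overlapped, and both passed whichever library was omitted, but with Akt1 and Notch1 as the reference neither did (-0.41 and -0.28, limma adjusted p = 0.15 and 0.33). The potassium channel Kcnk1 fell by 1.07 (0.05 with Akt1 and Notch1 as the reference), while the sodium channel subunit Scnn1a rose by 1.47 and the calcium-activated potassium channel Kcnn2 by 1.42. The list gave 1 higher and 2 lower without Control replicate 1, and 2 higher and 4 lower without Control replicate 2.

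Receptors and second-messenger genes had 4 higher and 6 lower of 31 tested (median -0.09). These were 12.9% and 19.4%, near the 17.1% and 16.2% of all genes tested. With Akt1 and Notch1 as the reference there were 25 and 2 (median 1.03), and with total counts 2 and 14 (median -0.52). Adcy5, an adenylyl cyclase that makes cAMP, fell by 2.86 (log2, limma adjusted p = 0.0023), from 2012 and 1758 to 393, 222 and 197. Vipr2, a receptor for vasoactive intestinal peptide, fell by 2.59 (limma adjusted p = 0.0018), from 1329 and 1352 to 283, 228 and 170.1. Gpbar1, the bile acid receptor TGR5, fell by 1.71, a call that stood in 1 of the 5 fits without a library. The alpha-1 adrenergic receptors Adra1a and Adra1b rose by 1.80 and 1.77, and the ATP-gated channel P2rx4 by 0.57. With total counts as library size P2rx4 was not called (0.14, limma adjusted p = 0.41), and with Akt1 and Notch1 as the reference Gpbar1 was not (-0.62, limma adjusted p = 0.22). The counts were 2 higher and 2 lower without Control replicate 1, and 2 higher and 3 lower without Control replicate 2.

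Of 20 genes of the cilium and of cystic disease, 10 were lower (median -0.50), against 10 higher with Akt1 and Notch1 as the reference (median 0.62) and 15 lower with total counts (median -0.93). Bicc1, an RNA-binding protein whose loss causes cysts, went from 23528 and 21696 to 9858, 9564 and 6995 (log2 -1.38, limma adjusted p = 0.0028). With Akt1 and Notch1 as the reference it was not called (-0.25, limma adjusted p = 0.40), nor were Dzip1l (-0.07) and Pkhd1l1 (-1.60). Dzip1l fell by 1.19, and Pkhd1l1, a relative of Pkhd1 at far lower counts of 2.36 to 46.8, by 2.59. Pkhd1l1 lay between -3.49 and -1.69 when single libraries were omitted and was not called without Control replicate 1 or Prox1 OE replicate 2, nor Dzip1l without Control replicate 1. Genes called lower numbered 2 without Control replicate 1 and 5 without Control replicate 2, and without Prox1 OE replicate 1 there were 14 lower and 2 higher.

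Bile acid transporters had 3 higher and 1 lower of 5 tested (median 0.73), against 4 higher with Akt1 and Notch1 as the reference (median 1.85) and 2 higher and 1 lower with total counts (median 0.30). The basolateral pumps Abcc3 and Abcc4 rose by 1.04 and 0.73 and the organic solute transporter subunit Slc51b by 1.70, and the drug pump Abcc1 fell by 1.25. Abcc4 was not called with total counts as library size (0.30, limma adjusted p = 0.23), nor Abcc1 with Akt1 and Notch1 as the reference (-0.13, limma adjusted p = 0.61). The duct bile acid carrier Slc10a2 was at 0.44 (log2, limma adjusted p = 0.067). With Control replicate 1 omitted, 1 was higher and 1 lower. Apart from the pathway lists, 14 genes of proton-secreting cells were followed as markers of another epithelial cell type, and 1 was higher and 4 lower of 7 tested (median -1.73). They were 2 and 2 with Akt1 and Notch1 as the reference (median -0.65), and 4 were lower with total counts (median -2.14). Atp6v1b1, a proton pump subunit of such cells, went from 357 and 369 to 4.09, 4.72 and 2.31 (log2 -6.31, limma adjusted p = 0.0014). These Prox1 OE values lay near the floor of 3 reads per library, so the size of the fall is approximate. Atp6v0a4 fell by 4.80 and Slc26a7 by 1.73, and Atp6v0d2 rose by 0.91. Slc26a7 was not called with Akt1 and Notch1 as the reference (-0.65), nor Atp6v0d2 with total counts as library size (0.48). Atp6v0a4 lay between -6.07 and -3.73 when single libraries were omitted, and was not called without Control replicate 1, Control replicate 2 or Prox1 OE replicate 3. Slc26a7 was not called without Control replicate 1 or 2 (-1.94 and -1.52), nor Atp6v0d2 without Control replicate 1. Foxi1, which defines these cells, had a normalised count of 117 in Control replicate 1 and 0 in the other 4 libraries. Calls in this list numbered 1 without Control replicate 1, 3 without Control replicate 2 and 3 without Prox1 OE replicate 3.

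**Figure D4:**
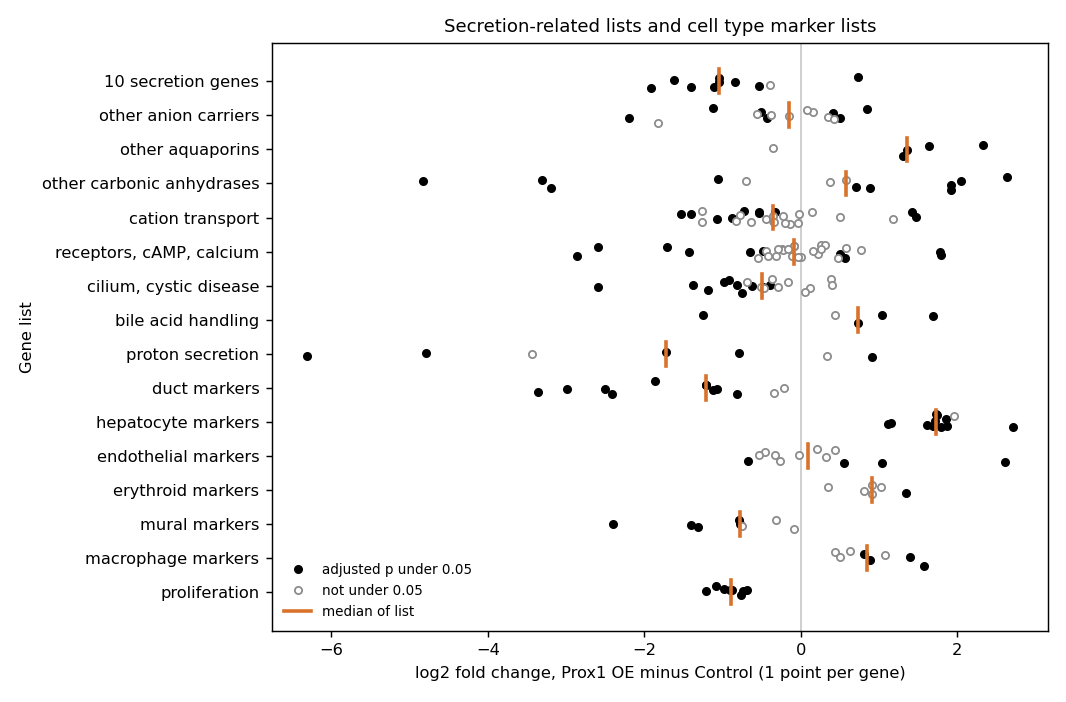
Log2 fold change (Prox1 OE minus Control) of each tested gene in the 10 secretion genes, the 7 pathway lists, proton-secreting cell markers and 7 other marker lists. Filled points passed an adjusted p of 0.05 and orange lines are list medians. The secretion genes have a median of -1.04 and the other aquaporins 1.36, while with Akt1 and Notch1 as the scaling reference the former was 0.08.

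Cftr was set against 2 duct markers. Per kb, it was 0.200 and 0.219 times Epcam in Control and 0.105 to 0.126 times in Prox1 OE. Against the keratin Krt19 it went the other way, from 0.173 and 0.142 to between 0.198 and 0.234, since Krt19 had the larger fall (log2 -2.41). Neither pair of groups overlapped.

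**Figure D5:**
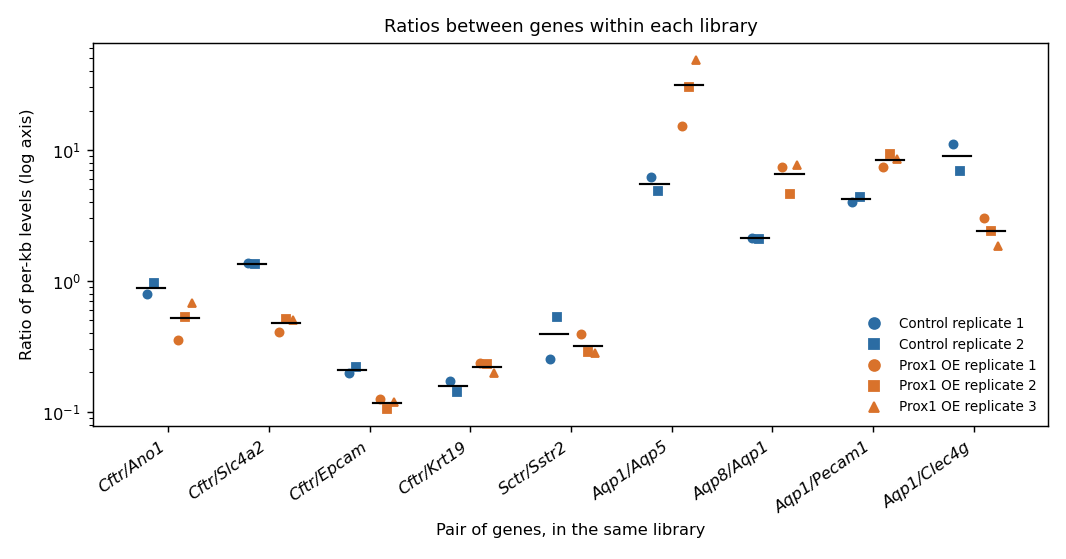
Ratio of the per-kb levels of pairs of genes within each library (log axis), with Control in blue, Prox1 OE in orange and group means as black lines. Cftr is lower relative to Ano1, Slc4a2 and Epcam in Prox1 OE, Sctr/Sstr2 overlaps, and Aqp1 is higher relative to Aqp5 and Pecam1. Cftr is higher relative to Krt19, and Aqp1 lower relative to Clec4g and to Aqp8. The pairs were chosen after values were seen.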

How the data were processed

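RNA was profiled in 5 tumour libraries. Per the labels and the study's methods, the authors made libraries with a dUTP protocol, mapped reads to mm10 with STAR and normalised with DESeq2; counting settings were not given in the sources used here. The deposited values are a signal, the reads of a gene divided by the size factor of its library. Dividing by the worth of 1 read (0.822 to 1.18 normalised counts, tolerance 0.01 reads, wider in proportion for large counts) gave whole reads for 100% of values. No per-sample column was left unassigned (0). The authors' own comparison table (mean, fold change and p-values) was not used.

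Because the values were normalised, log2(normalised count + 1) was fitted with limma 3.58.1 (R 4.3.3, mean-variance trend, two-sided, no covariate), for genes with a mean of at least 10, with Benjamini-Hochberg adjustment over 17105 genes and a threshold of 0.05. This scale understates the change of low genes. An exact permutation test of 2 against 3 libraries cannot go below p = 0.1, so none was used. Symbols, coordinates and exon lengths came from GENCODE M21 for GRCm38 (mm10), with 99.5% of identifiers matched. Levels per kb divide by the union of exons. A floor of 3 reads per library (2.46 to 3.54 normalised counts) set lower bounds. Floors and totals cover counting error only.

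The members and lists were chosen with earlier results of these data known, and some with the values in view. Text genes were the 10 members, Prox1, Akt1 and Notch1. From each secretion list, up to 3 called genes with the largest change in each direction were added. Aqp4, Aqp9, Slc10a2, Foxi1, Krt19, Epcam, the overlapping genes and the within-library ratios were chosen after values were seen. Clec4g, Stab2, Tek, Vwf, Pecam1, Alas2, Hba-a1, Sox9, Alb, Ttr and Kit were named from the marker lists. Alternatives were TMM, upper-quartile, total-count and Akt1 with Notch1 scalings, a pseudocount of 0.1 or 10, a filter at a mean of 50 or none, limma without trend, edgeR 4.0.16 and DESeq2 1.42.0 on recovered reads, a replicate block, and each library left out. Figures used matplotlib 3.10.9. The procedure was tested on simulated data.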

Additional observations from a re-analysis of the deposited data

How the results depend on the processing

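Of the 10 secretion genes, 8 were lower and 1 higher. With edgeR on recovered reads, DESeq2 on recovered reads, TMM or upper-quartile factors, or either other pseudocount, the counts were the same, 8 and 1. Over all genes edgeR called 3077 higher and 2684 lower, beside 2933 and 2769 with limma. Akt1 and Notch1 as the scaling reference gave 1 lower and 3 higher (1.39% and 73.9% of all genes tested), and the log2 fold changes of Ano1 (0.013), Sctr (0.071), Slc12a2 (0.080), Sstr2 (0.28), Car2 (0.58) and Slc4a2 (0.73) changed sign. Total counts as library size gave 9 lower and 0 higher (39.9% and 8.62% of all genes), with Slc4a2 called lower and Aqp1 not called. Leaving out 1 library at a time gave 2 to 9 lower and 0 to 1 higher, with 2 lower without Control replicate 2, 3 without Control replicate 1, 5 without Prox1 OE replicate 2 and 9 without Prox1 OE replicate 1, where 4.88%, 2.79%, 10.2% and 21.9% of all genes were called lower. Of the 123 genes tested in the 7 pathway lists and the proton-secreting cell list, 60 were called, 23 higher and 37 lower, and leaving out 1 library gave 20 to 73. The split became 79 higher and 8 lower with Akt1 and Notch1 as the reference, and 13 higher and 64 lower with total counts. Ano1 lost its call without the trend (limma adjusted p = 0.068), and Sctr without the trend (0.058) or without the filter (0.060).

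The labels state no pairing of same-numbered libraries of the 2 groups. Their deviations correlated by 0.137 and 0.0156, but the deviations of 2 Control libraries mirror each other. These values therefore cannot show whether a batch was shared. With the replicate number as a block, on 4 libraries without Prox1 OE replicate 3, 8 secretion genes were lower and 1 higher (15.0% and 15.6% of all genes). In that fit 56 list genes were called. The cause of these changes was not tested. With 2 Control libraries, a single one carries much of every value, and genes under a mean of 10 were not tested.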
